A study of Mus musculus with 4 samples.

Results

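DNA polymerases, replication fork and S-phase factors were read in activated CD4+ T cells, as a list of 46 genes chosen by name from the 16142 genes measured. All 46 gene symbols were found. The MCM helicase and the licensing genes other than the origin recognition complex were kept apart and serve as a comparison. The 46 genes are called replication fork genes below, although some of them act at origins. RNA-seq compared 2 libraries of WT CD4+ T cells with 2 libraries of R111A CD4+ T cells, all after 12 h of stimulation with anti-CD3 (5 µg/mL) and anti-CD28 (1 µg/mL). The cells were purified from mouse spleen and sorted by FACS before stimulation. WT cells came from B6 mice, and R111A cells from Cd4CreERT2 LSL-R111A fl/fl mice given tamoxifen (75 mg/kg for 5 days). The R111A mutant is a form of the ribonuclease Regnase-1 that the protease MALT1 cannot cleave. It is driven by the CAG promoter from the Rosa26 locus, together with EGFP, once a Cre that is active in Cd4-expressing cells has removed a stop cassette. The WT group therefore differs from the R111A group in carrying neither the Cre nor the transgene. The labels are worded alike for all 4 libraries and name tamoxifen after both kinds of mice, which can be read as a treatment of both groups or of the R111A mice alone. For other experiments the paper describes its WT mice as treated with tamoxifen. The paper gives a general age range and both sexes for its experiments, but not the sex of the mice behind each library, and the gate of the sort was not given for these libraries. Its general sorting method separates CD25-positive from CD25-negative CD4+ T cells. Where mice carry a GFP reporter, that method selects GFP-positive cells before this step. The labels also do not say whether the 2 libraries of a group came from separate animals, so p-values measure only the spread between these libraries. Zc3h12a, which encodes Regnase-1, was at 17.0 and 15.7 FPKM in the WT libraries and 196 and 131 FPKM in the others, high in both libraries labelled R111A.

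Before a cell divides it must copy its DNA once. The origin recognition complex marks the start sites, a kinase and its adaptors switch them on, and CDC45 and GINS join the MCM ring to form the moving helicase. Polymerase alpha-primase then lays down primers, polymerases epsilon and delta extend the leading and the lagging strand while held by the PCNA clamp, and nucleases and a ligase join the Okazaki fragments. Many of these genes are transcribed under E2F control as resting T cells leave quiescence and approach S phase after activation.

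The replication fork genes were lower in R111A CD4+ T cells almost throughout, but by very unequal amounts. Values are FPKM, fragment numbers scaled by transcript length and library size, so levels can be compared between genes per unit of length. Changes are on the scale of log2(FPKM + 1), R111A minus WT, which understates the change of low genes. Of the 46 members, 44 reached a mean of 1 FPKM over the 4 libraries and were tested with limma across all 9831 such genes. Of these 44, 25 were lower by 2-fold or more with an adjusted p below 0.05, a pair of thresholds that 8.34% of all tested genes passed in that direction. None was higher at those thresholds in limma, against 8.52% of all tested genes, and 1 member was higher at an unadjusted p under 0.05. By the adjusted p alone, 37 members were lower and 1 was higher, against 32.1% and 21.2% of all tested genes. The median log2 fold change of the 44 members was -1.12, against -0.12 over all 9831 genes.

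Both R111A libraries lay below both WT libraries for 41 of the 44 tested members, an ordering seen in 46.3% of all tested genes. For 1 member both R111A libraries lay above both WT libraries, as in 32.0% of all tested genes, and for 2 members the groups overlapped. Ticrr and Clspn had a mean under 1 FPKM and were not tested, and both were lower in both R111A libraries. Orc1 and Dna2 had an R111A mean under 1 FPKM as well and passed the filter only through their WT level, so they had to differ, and both are among the 25. In bulk RNA, fewer cells in S phase and less of each RNA per cell cannot be told apart.

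**Figure D1:**
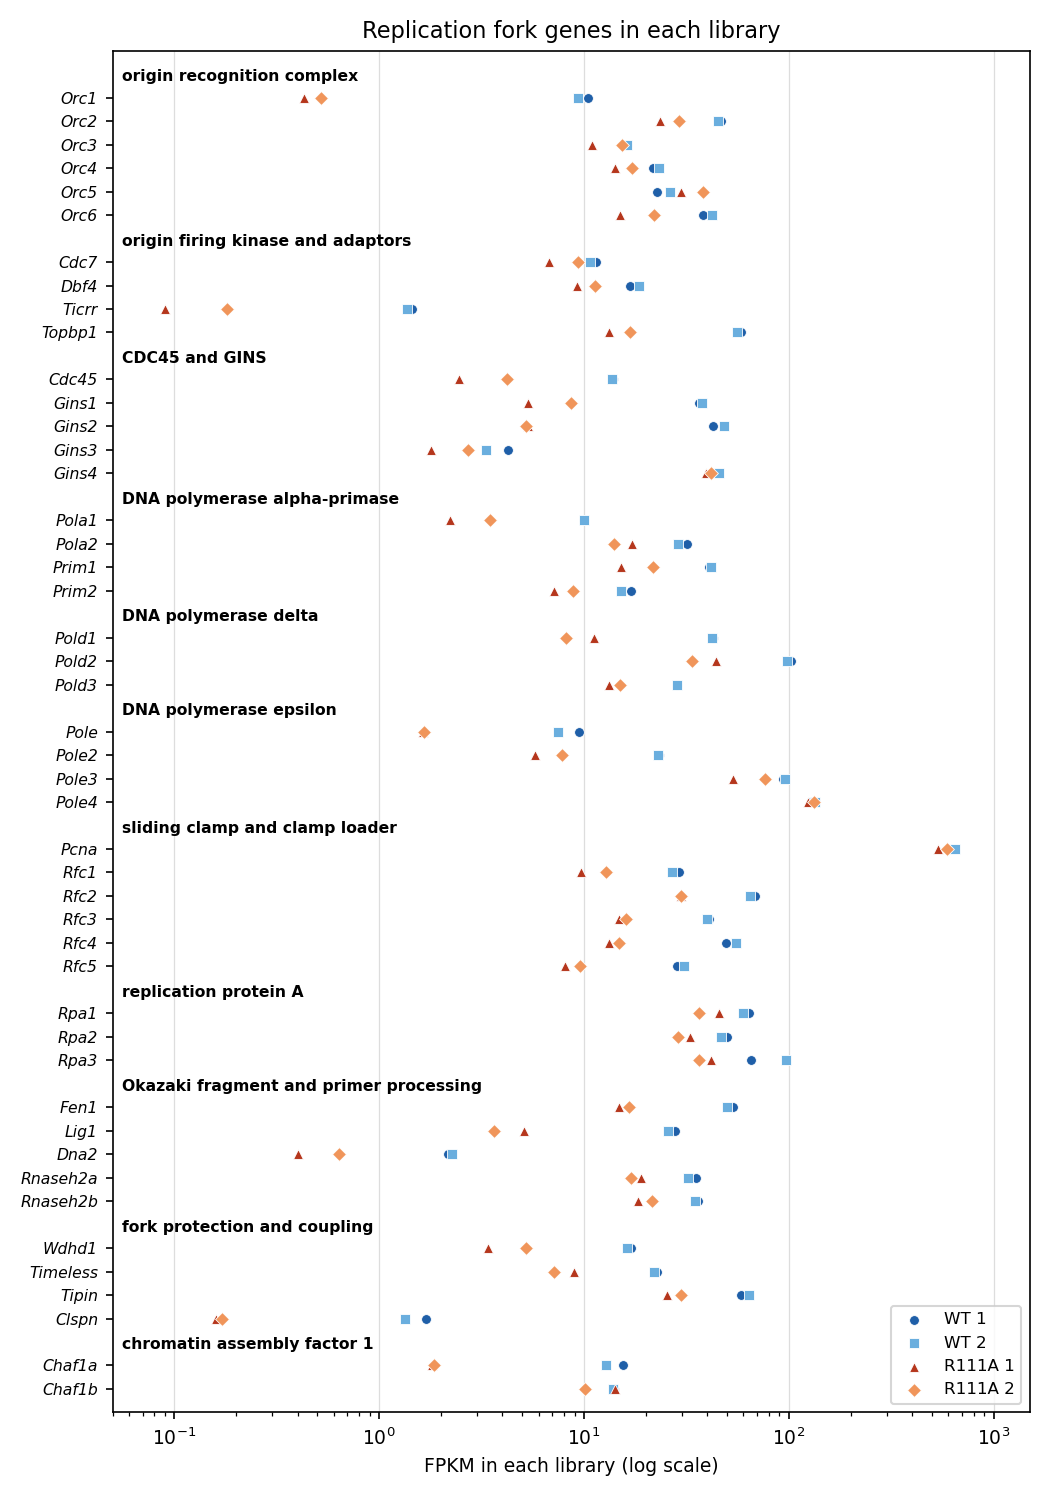
FPKM of each of the 46 replication fork genes in the 2 WT (blue) and 2 R111A (red and orange) libraries, on a log axis and grouped by role. The R111A points lie to the left of the WT points for 43 of the 46 genes, to the right for Orc5, and overlap for Pole4 and Chaf1b.

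The FPKM of the 46 members summed to 2205 and 2265 in WT and to 1312 and 1438 in R111A. Pcna alone made up 27.8% and 28.6% of that sum in WT, and 40.6% and 41.3% in R111A. Without Pcna the WT sums came to 1592 and 1617 FPKM, against 780 and 845 FPKM in R111A. So the most abundant gene of the list took a larger share of it in both R111A libraries, while the sum of the other 45 genes was lower. The median member was at 30.0 FPKM in the WT mean and 13.6 FPKM in the R111A mean, where the median tested gene was at 15.0 and 13.9 FPKM. Of the 46 members, 29 had a WT mean at least 2 times the R111A mean, 18 at least 3 times and 11 at least 4 times. The share of all tested genes past these ratios was not counted, so these counts only describe the list. Among the 11 are Orc1, Ticrr, Clspn and Dna2, whose R111A means were under 1 FPKM, where a ratio is uncertain.

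The libraries differ in their total. FPKM over all genes summed to 801475 and 836143 in WT and to 1053551 and 1012215 in R111A. When each library was rescaled to the same sum, as TPM, the median of all tested genes shifted by -0.30, from -0.12 to -0.42. Changes are therefore also given relative to that median. The members' median minus the median of all genes was -1.0 in FPKM as deposited and -1.02 after rescaling. With either scale, 42 of the 44 members lay below the median of all genes, and the exceptions were Orc5 and Pole4. The rescaling moved the calls over all genes from 820 lower and 838 higher to 1749 lower and 583 higher, so the lower share of calls went from 49.5% to 75.0%. Among the members it took the count at both thresholds from 25 to 32, adding Orc2, Dbf4, Pola2, Prim2, Pold3, Rnaseh2a and Rnaseh2b. The count of members lower by the adjusted p went from 37 to 43. Over all 9831 tested genes, that count went from 3152 to 5096.

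**Figure D2:**
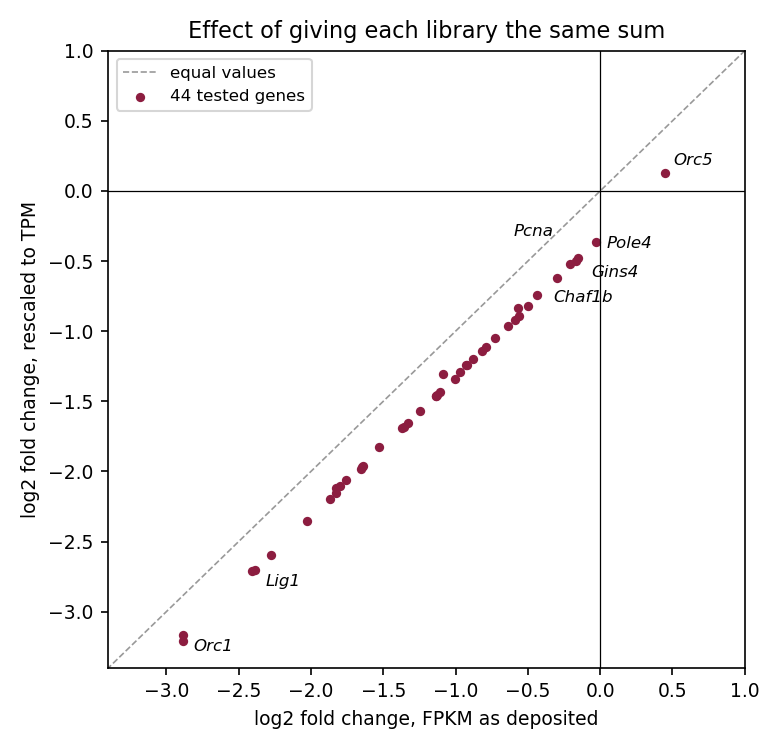
Log2 fold change of the 44 tested genes with FPKM as deposited (horizontal axis) and after rescaling each library to the same sum (vertical axis), with the line of equal values dashed. All points lie below the line, and Orc5, at 0.45 and 0.13, is the only gene above 0 on either axis.

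RefSeq promoter windows of GRCm38.p6, 250 bases before to 50 bases after a start site, were at hand for 38 of the 46 members, as 47 windows. Gins1, Gins2, Gins4, Prim2, Pole, Rfc2, Rnaseh2b and Tipin had none. Each window was searched on both strands for 4 words of the E2F site (TTTCCCGC, TTTCGCGC, TTTGCCGC and TTTGGCGC), for the CHR element (TTTGAA) and for the CCAAT box. An E2F word was found in 13 of the 47 windows (27.7%), belonging to 12 members, against 744 of all 32851 windows (2.26%). CHR was found in 7 windows (14.9%, against 17.9% of all windows), and CCAAT in 20 (42.6%, against 37.4%). A match is a description of letters and says nothing of whether a factor binds there. The stretches around the E2F words are shown with 10 bases on each side where the window allows, 5′ to 3′ on the strand of the gene, with the E2F words in capitals. Pole4 has the same word in both of its overlapping windows, and Rfc3 has a pair of words that do not overlap.
Clspn (chr4:126556991-126557018, plus strand): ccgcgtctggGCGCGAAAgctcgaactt
Gins3 (chr8:95633508-95633535, plus strand): cgagtgcggcGCGGGAAAgcgagtttga
Lig1 (chr7:13278842-13278869, plus strand): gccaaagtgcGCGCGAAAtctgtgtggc
Orc1 (chr4:108579417-108579444, plus strand): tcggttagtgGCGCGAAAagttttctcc
Orc3 (chr4:34614966-34614993, minus strand): catgcctcccTTTCCCGCacgccccgcc
Pola1 (chrX:93632276-93632303, minus strand): tcatcacaggGCGCCAAAtgcactcccg
Pold1 (chr7:44548766-44548786, minus strand): gtatcttgtgGCGGGAAAagc
Pold3 (chr7:100121468-100121495, minus strand): agcgaagctgTTTCCCGCcggcgggagc
Pole2 (chr12:69228163-69228190, minus strand): gtcggcggtgGCGCCAAAtcgcgaacat
Pole4 (chr6:82652891-82652918, minus strand): tctacccggcGCGGGAAAggggccgaaa
Rfc3 (chr5:151651191-151651228, minus strand): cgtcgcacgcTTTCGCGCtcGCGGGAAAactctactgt
Topbp1 (chr9:103305188-103305215, plus strand): cgctcggttgGCGCGAAAgtcggttccc

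Of the 12 genes with an E2F word, 11 were tested, with log2 fold changes from -2.89 to -0.03 and a median of -1.53. The 25 tested genes with a window but no such word ran from -2.41 to 0.45, with a median of -1.01. The ranges overlap widely. Pole4 carried a word and was among the least changed genes, while Chaf1a carried none and was among the most changed. The complete windows of the genes with the lowest and the highest log2 fold change among those with a window, Orc1 and Orc5, are printed for comparison. Capitals mark the E2F word and the CCAAT boxes in either orientation. Orc1 has an E2F word that starts 27 bases before its start site, and CCAAT boxes that start 120 and 66 bases before it. The Orc5 window holds none of the 3 motifs.
Orc1 (chr4:108579204-108579503, plus strand): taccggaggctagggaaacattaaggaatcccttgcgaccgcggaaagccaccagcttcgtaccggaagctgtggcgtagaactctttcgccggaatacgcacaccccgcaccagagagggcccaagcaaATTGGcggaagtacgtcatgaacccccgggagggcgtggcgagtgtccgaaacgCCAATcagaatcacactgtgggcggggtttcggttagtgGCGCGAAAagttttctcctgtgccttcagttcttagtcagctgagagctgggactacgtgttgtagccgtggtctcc
Orc5 (chr5:22550289-22550588, minus strand): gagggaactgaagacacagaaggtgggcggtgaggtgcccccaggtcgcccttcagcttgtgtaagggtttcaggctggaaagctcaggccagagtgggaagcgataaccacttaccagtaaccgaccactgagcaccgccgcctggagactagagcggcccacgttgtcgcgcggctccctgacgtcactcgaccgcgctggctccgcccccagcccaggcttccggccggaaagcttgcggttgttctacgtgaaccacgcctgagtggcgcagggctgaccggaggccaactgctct

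The origin recognition complex, which binds origins and loads the helicase, split between its subunits. Of its 6 genes, 2 fell past both thresholds and 2 more passed the adjusted p in the same direction. The adjusted p was passed in the other direction by 1 gene, and 1 did not pass. Of all tested genes, 8.34% were lower past both thresholds, and 32.1% were lower and 21.2% higher by the adjusted p. Orc1 (NCBI gene 18392, chromosome 4 from 108575705 to 108616030), the subunit whose amount varies through the cell cycle, was at 10.5 and 9.36 FPKM in WT and 0.43 and 0.52 FPKM in R111A. It fell from a clear level to near the bottom of the measured range in both R111A libraries (log2 fold change -2.89 with a standard error of 0.14, adjusted p = 4.5e-06). Orc1 is among the 2 past both thresholds, but it passed the filter only through its WT level, so it had to differ. Its WT mean was 20.9 times its R111A mean, the highest such ratio of the 46 genes. Over R111A values this low the size depends on the pseudocount, and the log2 fold change ran from -4.12 with 0.1 FPKM to -1.44 with 5 FPKM. Orc5 (NCBI gene 26429, chromosome 5 from 22486480 to 22550338), an ATPase subunit of the same complex, was at 22.7 and 26.3 FPKM in WT and 29.8 and 38.1 FPKM in R111A. No other member was higher in both libraries of R111A cells (log2 fold change 0.45 with a standard error of 0.16, adjusted p = 0.043). That call was lost after rescaling to TPM (log2 fold change 0.13, adjusted p = 0.53), with no filter, and without WT replicate 1 (0.35), WT replicate 2 (0.55) or R111A replicate 2 (0.28), and the adjusted p ranged from 0.0028 to 0.53 over the alternatives. Relative to the median of all genes, Orc5 lay 0.56 higher as deposited and 0.54 higher after rescaling. Orc6 fell (-1.11), though by less than 2-fold without R111A replicate 1 (-0.85), with quantile normalization (-0.97) and with a pseudocount of 5 FPKM (-0.96). Orc2 (-0.79) and Orc4 (-0.50) fell by less than 2-fold, and the call of Orc4 was lost with quantile normalization (-0.38, adjusted p = 0.061), without WT replicate 1 (-0.55, adjusted p = 0.13) and without WT replicate 2 (-0.45, adjusted p = 0.23). Orc3, the partner of ORC2 in the core of the complex, was at 16.3 and 16.2 FPKM in WT and 11.0 and 15.3 FPKM in R111A, a difference that did not pass (log2 fold change -0.30 with a standard error of 0.17, adjusted p = 0.17). Orc3 did pass after rescaling to TPM (-0.62, adjusted p = 0.0093), with GC and length correction (-0.27, adjusted p = 0.046) and without R111A replicate 2 (-0.52, adjusted p = 0.0063), but was at -0.08 without R111A replicate 1 (adjusted p = 0.46).

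Origins are switched on by the kinase CDC7 with its activator DBF4 and by adaptors that bring CDC45 to the MCM ring. Topbp1 (NCBI gene 235559, chromosome 9 from 103305167 to 103350428), the adaptor that also activates the ATR kinase, was at 58.5 and 56.0 FPKM in WT and 13.3 and 16.8 FPKM in R111A. It fell with no overlap between the groups (log2 fold change -1.87 with a standard error of 0.15, adjusted p = 3.0e-05). Cdc7 (NCBI gene 12545, chromosome 5 from 106964315 to 106984440) was at 11.5 and 10.7 FPKM in WT and 6.73 and 9.35 FPKM in R111A, so its second R111A library came close to the WT values and it did not pass (log2 fold change -0.43 with a standard error of 0.17, adjusted p = 0.059). Cdc7 did pass after rescaling to TPM (log2 fold change -0.74, adjusted p = 0.0034) and with GC and length correction (-0.34, adjusted p = 0.031). With the replicate number as a block it also passed (-0.43, adjusted p = 0.026). It was at -0.65 without R111A replicate 2 and at -0.22 without R111A replicate 1. Its adjusted p ran from 0.0034 to 0.31 over the alternatives. Dbf4 fell (-0.73), by less than 2-fold, a call lost without WT replicate 2 (-0.66, adjusted p = 0.063). Ticrr, the partner of TOPBP1 in loading CDC45, was at 1.45 and 1.36 FPKM in WT and 0.09 and 0.18 FPKM in R111A. In the fit with no filter it was lower in R111A (log2 fold change -1.08 with a standard error of 0.07, adjusted p = 0.0027), at levels where few fragments lie behind a value.

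CDC45 and the GINS complex complete the replicative helicase, and their genes held both a large and a very small change. Gins2 (NCBI gene 272551, chromosome 8 from 120581266 to 120589075) was at 42.6 and 48.2 FPKM in WT and 5.30 and 5.22 FPKM in R111A. This was the lowest log2 fold change of all members, by a margin over Orc1 far smaller than its error, and Orc1 was the lower of the pair in 6 of the 15 alternatives (log2 fold change -2.89 with a standard error of 0.14, adjusted p = 3.9e-06). Gins4 (NCBI gene 109145, chromosome 8 from 23226610 to 23237668), which encodes another subunit of the same 4-gene complex, was at 45.0 and 45.4 FPKM in WT and 39.6 and 41.7 FPKM in R111A. The WT levels of Gins2 and Gins4 were alike, and in R111A Gins4 was still at about its WT level (log2 fold change -0.15 with a standard error of 0.13, adjusted p = 0.34). The log2 fold change of Gins4 was -0.48 after rescaling to TPM, where it passed (adjusted p = 0.010), and 0.03 with quantile normalization, where it did not (adjusted p = 0.84), so its direction depends on the scaling. Over the alternatives its adjusted p ran from 0.010 to 0.84. Gins1 (-2.28) and Cdc45 (-1.80) fell past both thresholds. Gins3 was the least abundant GINS gene, at 4.26 and 3.34 FPKM in WT and 1.80 and 2.71 FPKM in R111A, and passed the adjusted p only (log2 fold change -0.57 with a standard error of 0.18, adjusted p = 0.028). That call was lost with no filter, without WT replicate 1 and without R111A replicate 1 (-0.365), the adjusted p running from 0.0022 to 0.19.

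**Figure D3:**
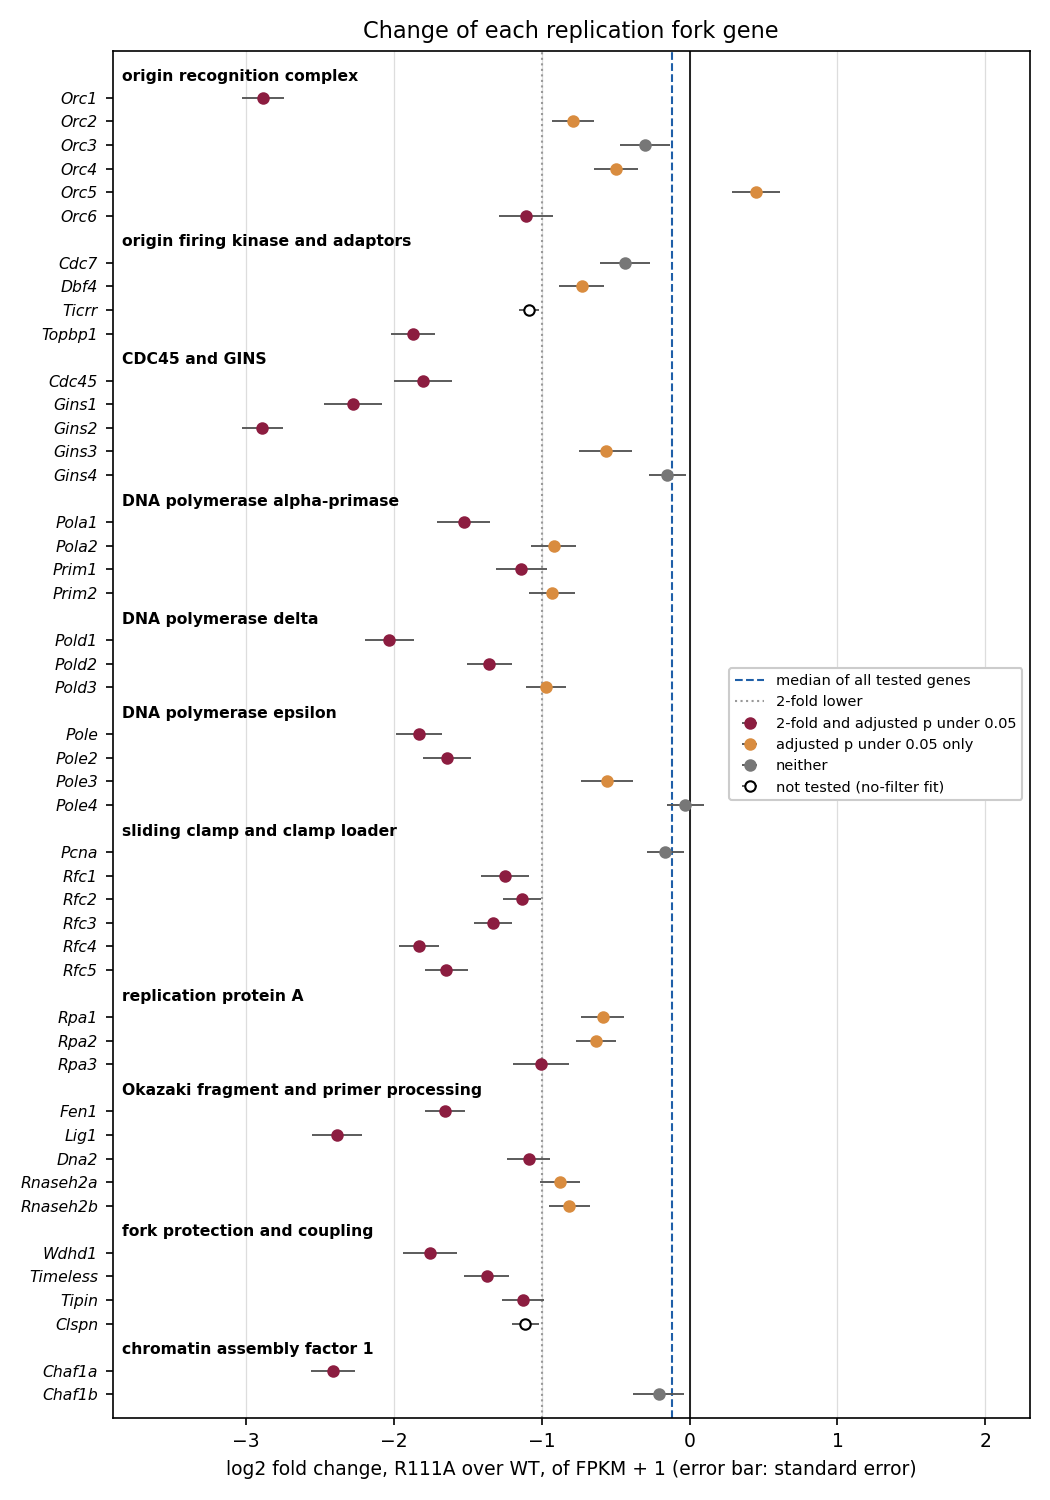
Log2 fold change (R111A over WT, of FPKM + 1) of each replication fork gene with its standard error from limma, grouped by role and coloured by the threshold it passed. Open points are Ticrr and Clspn, taken from the fit with no filter. Values run from -2.89 for Gins2 and Orc1 to 0.45 for Orc5, and the dashed line marks the median of all tested genes at -0.12.

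Polymerase alpha-primase, which starts each new strand with an RNA-DNA primer, was lower in each of its 4 genes. All 4 passed the adjusted p and 2 passed both thresholds, beside 32.1% and 8.34% of all tested genes. Their log2 fold changes had a narrow range, from -1.53 to -0.92. Pola1 (NCBI gene 18968, chromosome X from 93304766 to 93632387), the catalytic subunit, was at 9.95 and 9.95 FPKM in WT and 2.22 and 3.49 FPKM in R111A. It fell the furthest of these (log2 fold change -1.53 with a standard error of 0.18, adjusted p = 2.1e-04), but by less than 2-fold with a pseudocount of 5 FPKM (-0.93). Pola2 (NCBI gene 18969, chromosome 19 from 5940543 to 5964238), the regulatory subunit, was at 31.9 and 28.7 FPKM in WT and 17.2 and 14.0 FPKM in R111A and fell the least (log2 fold change -0.92 with a standard error of 0.15, adjusted p = 0.0012). The primase genes Prim1 (-1.14) and Prim2 (-0.93) lay between them. Without R111A replicate 1, Prim1 fell by less than 2-fold (-0.90) and Pola2 by more (-1.06). With all libraries and a pseudocount of 5 FPKM, Prim1 was at -0.99. Prim2 fell by more than 2-fold without WT replicate 2 (-1.005) or R111A replicate 2 (-1.06).

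Polymerase delta, the lagging-strand polymerase, showed a graded fall over its 3 listed subunits. Pold1 (NCBI gene 18971, chromosome 7 from 44532744 to 44548815), the catalytic subunit, was at 42.6 and 42.0 FPKM in WT and 11.2 and 8.18 FPKM in R111A. It fell in both R111A libraries (log2 fold change -2.03 with a standard error of 0.16, adjusted p = 3.3e-05). Pold3 (NCBI gene 67967, chromosome 7 from 100082110 to 100121502), an accessory subunit with a PCNA-binding tail, was at 28.4 and 28.6 FPKM in WT and 13.2 and 15.0 FPKM in R111A and fell by just under 2-fold (log2 fold change -0.97 with a standard error of 0.14, adjusted p = 5.4e-04). Without R111A replicate 2, Pold3 fell by just over 2-fold (-1.06). Pold2 lay between (-1.35). The small subunit Pold4 was not a member and is described with the other fork factors.

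Polymerase epsilon, which copies the leading strand, divided into a pair of genes that fell and a pair that changed little or less. Pole (NCBI gene 18973, chromosome 5 from 110286319 to 110337468), the catalytic subunit, was at 9.42 and 7.49 FPKM in WT and 1.64 and 1.66 FPKM in R111A. It fell in both R111A libraries (log2 fold change -1.83 with a standard error of 0.15, adjusted p = 3.9e-05), and Pole2, the subunit that ties it to the helicase, fell almost as far (-1.64). Pole4 (NCBI gene 66979, chromosome 6 from 82616532 to 82653043), a small histone-fold subunit, was at 128 and 134 FPKM in WT and 124 and 133 FPKM in R111A. The groups overlapped, and no difference beyond the spread between libraries was seen (log2 fold change -0.03 with a standard error of 0.12, adjusted p = 0.87). Its direction turned with the scaling, from -0.36 after rescaling to TPM (adjusted p = 0.033) to 0.22 with quantile normalization (adjusted p = 0.17), and the adjusted p ran from 0.033 to 1.0 over the alternatives. Pole3, the histone-fold partner of POLE4, which also serves in chromatin remodelling, fell by less than 2-fold (log2 fold change -0.56 with a standard error of 0.18, adjusted p = 0.026). Its call was lost with quantile normalization (-0.31), and with no filter (-0.56), without WT replicate 1 (-0.57) and without WT replicate 2 (-0.55), where the size was about as reported, the adjusted p running from 0.00078 to 0.19. Without R111A replicate 1 its log2 fold change was -0.30.

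The genes of the sliding clamp and of its loader differed in their calls. Pcna (NCBI gene 18538, chromosome 2 from 132249286 to 132253180), the ring that holds polymerases on DNA, was the most abundant member, at 613 and 648 FPKM in WT and 532 and 593 FPKM in R111A. Both R111A values lay under both WT values, but the difference was not larger than the spread between libraries allows (log2 fold change -0.17 with a standard error of 0.13, adjusted p = 0.29). After rescaling to TPM, Pcna did pass, at a log2 fold change of -0.50 (adjusted p = 0.0045; up to 0.76 over the alternatives), and without R111A replicate 1 it was at -0.09. Relative to the median of all genes it lay at -0.05 as deposited and at -0.08 after rescaling. All 5 genes of replication factor C, the ATPase that opens and loads the ring, fell past both thresholds, beside 8.34% of all tested genes. Rfc2 fell by less than 2-fold with quantile normalization (-0.97). Rfc4 (NCBI gene 106344, chromosome 16 from 23113948 to 23127730) was at 49.5 and 55.1 FPKM in WT and 13.2 and 14.8 FPKM in R111A and fell the furthest (log2 fold change -1.83 with a standard error of 0.14, adjusted p = 2.4e-05). It was followed by Rfc5 (-1.64), Rfc3 (-1.33), Rfc1 (-1.25) and Rfc2 (-1.13). Rfc2 to Rfc5 are shared by the other clamp loaders of the cell, whereas Rfc1 is the large subunit of the loader for replication.

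Replication protein A coats single-stranded DNA at the fork and in repair, and its genes fell by modest amounts. All 3 passed the adjusted p, and 1 of them passed both thresholds, beside 32.1% and 8.34% of all tested genes. Rpa3 (NCBI gene 68240, chromosome 6 from 8255936 to 8259141), the small subunit, was at 65.4 and 96.4 FPKM in WT and 41.7 and 36.5 FPKM in R111A. Its WT libraries stood further apart than those of other members, and its log2 fold change lay right at the 2-fold threshold (log2 fold change -1.01 with a standard error of 0.19, adjusted p = 0.0024). It was under that threshold without WT replicate 2 (-0.73) and R111A replicate 2 (-0.91). The same held with median-of-ratios factors (-0.92), quantile normalization (-0.80), GC and length correction (-0.92) and a pseudocount of 5 FPKM (-0.94). Rpa1 (NCBI gene 68275, chromosome 11 from 75300259 to 75348454), the large DNA-binding subunit, was at 64.2 and 59.9 FPKM in WT and 45.8 and 36.6 FPKM in R111A and fell by less (log2 fold change -0.59 with a standard error of 0.15, adjusted p = 0.0098). The call of Rpa1 was lost with quantile normalization (-0.39), and without WT replicate 1 (-0.54) and WT replicate 2 (-0.64), where the size was about as reported, the adjusted p running from 0.00019 to 0.12. Rpa2 fell by a similar amount (-0.63), a call lost without WT replicate 1 (-0.59, adjusted p = 0.087).

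The genes of the enzymes that finish Okazaki fragments and remove primers all passed the adjusted p as lower, 3 of the 5 also by 2-fold. Over all tested genes, the shares were 32.1% and 8.34%. Lig1 (NCBI gene 16881, chromosome 7 from 13277175 to 13311426), the ligase that seals the fragments, was at 27.9 and 25.6 FPKM in WT and 5.10 and 3.64 FPKM in R111A. It fell the furthest of this group (log2 fold change -2.38 with a standard error of 0.17, adjusted p = 1.7e-05). Rnaseh2b (NCBI gene 67153, chromosome 14 from 62332068 to 62372996), a structural subunit of the ribonuclease that removes RNA from DNA, was at 36.2 and 35.0 FPKM in WT and 18.3 and 21.4 FPKM in R111A. It fell the least (log2 fold change -0.81 with a standard error of 0.14, adjusted p = 0.0015), close to Rnaseh2a, the catalytic subunit (-0.88). The flap endonuclease Fen1 fell by more (-1.65). Dna2, a nuclease and helicase that trims long flaps, was at 2.16 and 2.28 FPKM in WT and 0.40 and 0.64 FPKM in R111A. It is among the 3 past both thresholds, but it passed the filter only through its WT level, so it had to differ. Its log2 fold change of -1.09 understates a ratio of means of 4.27 because of the pseudocount, and was short of 2-fold without R111A replicate 1 (-0.97), with GC and length correction (-0.96) and with a pseudocount of 5 FPKM (-0.39).

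The genes of the proteins that tie helicase and polymerases together and protect the paused fork were lower in RNA. All 3 tested genes passed both thresholds, beside 8.34% of all tested genes. Wdhd1 (NCBI gene 218973, chromosome 14 from 47240944 to 47276861), which links polymerase alpha to the helicase, was at 17.0 and 16.2 FPKM in WT and 3.40 and 5.21 FPKM in R111A. It fell the furthest of the 3 (log2 fold change -1.75 with a standard error of 0.18, adjusted p = 1.1e-04). Tipin (NCBI gene 66131, chromosome 9 from 64281491 to 64305422), the partner of TIMELESS in the fork protection complex, was at 58.5 and 64.2 FPKM in WT and 25.3 and 29.9 FPKM in R111A and fell the least (log2 fold change -1.13 with a standard error of 0.14, adjusted p = 2.9e-04), by less than 2-fold with quantile normalization (-0.97). Timeless lay between (-1.37). Clspn, the mediator of the ATR to CHK1 signal, was at 1.70 and 1.34 FPKM in WT and 0.16 and 0.17 FPKM in R111A. Without a filter it was lower in R111A (log2 fold change -1.11 with a standard error of 0.09, adjusted p = 0.0036), again at levels with few fragments.

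Chromatin assembly factor 1 places histones behind the fork, and its listed genes moved apart. Chaf1a (NCBI gene 27221, chromosome 17 from 56040416 to 56068026), the large subunit that binds PCNA, was at 15.4 and 12.8 FPKM in WT and 1.81 and 1.86 FPKM in R111A. It fell in both R111A libraries (log2 fold change -2.41 with a standard error of 0.15, adjusted p = 1.1e-05). Chaf1b (NCBI gene 110749, chromosome 16 from 93883900 to 93906115), the middle subunit, was at 14.0 and 13.9 FPKM in WT and 14.1 and 10.1 FPKM in R111A. The groups overlapped and it did not pass (log2 fold change -0.21 with a standard error of 0.17, adjusted p = 0.33), though it did after rescaling to TPM (log2 fold change -0.52, adjusted p = 0.018). Leaving out R111A replicate 1 also let it pass, and leaving out R111A replicate 2 turned its direction (log2 fold change 0.02, adjusted p = 0.88), so its value rests on that library.

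A ratio of 2 genes within a library does not depend on how the library is scaled. For each of the 11 role groups the gene with the lowest log2 fold change was divided by the gene with the highest, so the choice of the pair fixes the direction of the difference and only its size is a description. Orc1 over Orc5 was 0.46 and 0.36 in WT, and 0.014 in both R111A libraries. Gins2 over Gins4 was 0.95 and 1.06 in WT, and 0.13 in both R111A libraries. In these pairs, picked for their difference, the RNAs were far more unequal in R111A than in WT. The size for Orc1 over Orc5 rests on Orc1 values under 1 FPKM in R111A, and Gins2 is limited by the exon overlap given below. Chaf1a over Chaf1b was 1.10 and 0.92 in WT, and 0.13 and 0.18 in R111A. Pole over Pole4 was 0.074 and 0.056 in WT, and 0.013 and 0.012 in R111A. Rfc4 over Pcna was 0.081 and 0.085 in WT and 0.025 in both R111A libraries, so Rfc4 RNA was lower relative to Pcna RNA in R111A. The pairs of polymerase alpha-primase (1.74), fork coupling (1.76) and replication protein A (1.38) had the smallest WT over R111A quotients of these ratios, and Orc1 over Orc5 had the highest (29.1).

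**Figure D4:**
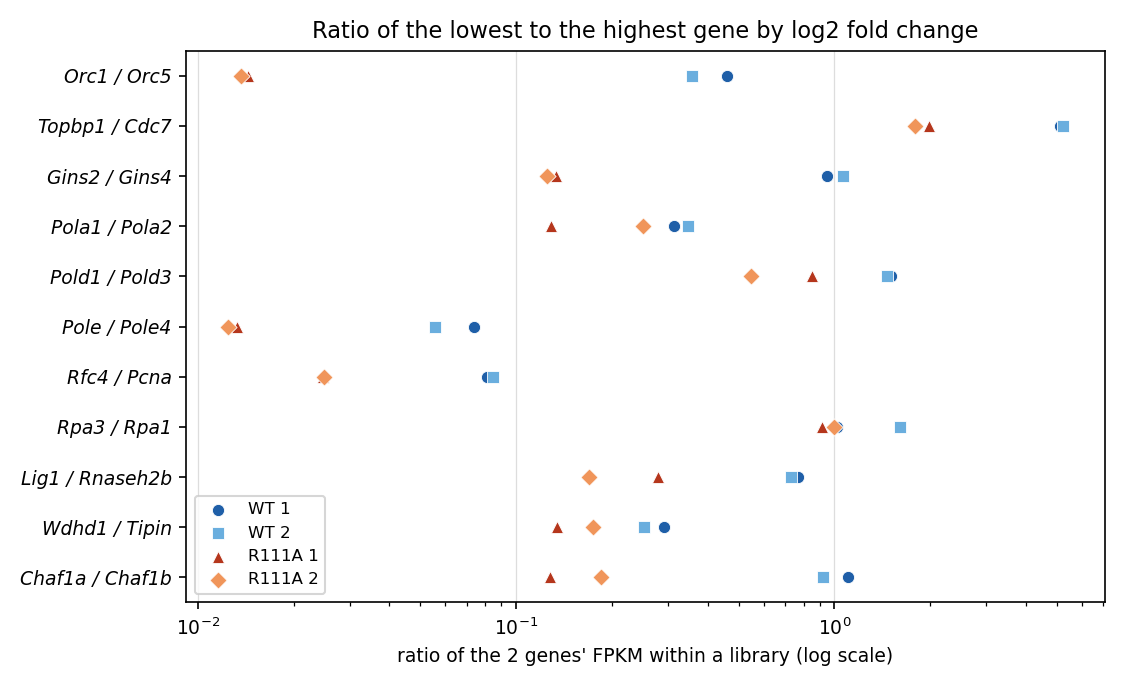
Ratio of the FPKM of 2 genes within each library, for the genes with the lowest and the highest log2 fold change of each of the 11 role groups, on a log axis. The R111A points lie to the left of the WT points in each pair, by the choice of the pairs, from a quotient of 1.38 for Rpa3 over Rpa1 to 29.1 for Orc1 over Orc5.

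The R111A libraries also differed from each other. Among 1938 genes averaging 50 FPKM or more, replicates differed by a log2 ratio whose SD was 0.13 in WT and 0.32 in R111A. R111A replicate 2 had the higher value for 35 of the 46 members, with a median ratio of 1.18 to replicate 1, against 1.01 over all tested genes. In WT, replicate 2 had the higher value for 17 members, with a median ratio of 0.98. The genes that ran the other way in R111A were Gins2, Pola2, Pold1, Pold2, Lig1, Rnaseh2a, Timeless, Chaf1b and the 3 genes of replication protein A. The difference between the R111A replicates followed the GC content of the longest coding transcript, with a Spearman's rho of -0.59 across the 44 tested members and -0.69 across 9600 tested genes. The log2 fold change of the members followed GC content less (rho -0.31) and that of all genes not at all (rho 0.01). These are descriptions, since genes that share the same 4 libraries are not independent replicates. Correcting each library for GC content and length, chosen after seeing the data, left 23 members lower past both thresholds and 39 by the adjusted p. Over the 9600 genes tested with that correction, 698 were lower past both thresholds and 3427 by the adjusted p.

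Reads of some members can be shared with other genes, because the sources used here do not say whether the counting used strand. Exons of 14 members overlap exons of another measured gene, in 6 cases over more than 10% of their exon bases in the GENCODE annotation. Annotated genes that were not measured also overlap members on the other strand, most of all Gm10143 over 78.8% of Fen1, and Gm12743 over 10.8% of Orc1. Exons of Gse1 cover 67.3% of the annotated exon bases of Gins2 on the other strand, and those of Ubxn6 cover 52.5% of Chaf1a. Gse1 was at 5.35 and 4.57 FPKM in WT and 14.3 and 10.1 FPKM in R111A, and Ubxn6 at 31.9 and 36.3 FPKM in WT and 53.3 and 45.0 FPKM in R111A. Both rose where their partner fell, so the values of Gins2 and Chaf1a are uncertain to that extent. Smaller overlaps can involve far more abundant genes on the other strand. Eif4a2, at a mean of 238.8 FPKM over the libraries, covers 12.65% of Rfc4, and Tmem258, at 524.5 FPKM, covers 5.4% of Fen1. Pcna and Topbp1 have annotated pseudogenes that could take up some of their reads.

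The other genes of DNA replication set these values in context, and the MCM and licensing genes fell further. All 11 passed both thresholds as lower, beside 8.34% of all tested genes, with a median log2 fold change of -2.10 against -1.12 for the fork genes, a difference that was not tested. Mcm10 and Cdc6 had an R111A mean under 1 FPKM and passed the filter only through WT, so they had to differ. The count was 7 with a pseudocount of 5 FPKM and 9 without R111A replicate 2. The lowest was Mcm5, a subunit of the MCM ring, at 158 and 155 FPKM in WT and 19.6 and 19.8 FPKM in R111A (-2.93). The highest was Mcmbp, which helps to maintain the MCM pool, at 36.0 and 34.7 FPKM in WT and 17.3 and 15.3 FPKM in R111A (-1.07). The ranges of the lists overlap, since Gins2 and Orc1 reached nearly as low as Mcm5.

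Polymerases of repair, translesion synthesis and mitochondria were listed apart from the replicative ones, and the lists were not tested against each other. Of 15 genes 13 were tested, of which 1 was lower and 2 were higher past both thresholds, beside 8.34% and 8.52% of all tested genes, and 8 did not pass the adjusted p. Dntt, the template-independent polymerase of antigen receptor joining, is 1 of the 2 higher genes, at 0.06 and 0.03 FPKM in WT and 2.31 and 2.10 FPKM in R111A. It passed the filter only through R111A, so it had to differ, and the count was 1 with a pseudocount of 5 FPKM or a filter at 5 FPKM. The median log2 fold change of the 13 was -0.03. The lowest was Mad2l2, a subunit of polymerase zeta with other roles in mitosis and repair, at 48.9 and 47.5 FPKM in WT and 23.0 and 19.2 FPKM in R111A (-1.16). The highest was Polk, a translesion polymerase, at 4.44 and 3.98 FPKM in WT and 14 and 22 FPKM in R111A (log2 fold change 1.85 with a standard error of 0.20, adjusted p = 1.4e-04).

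Genes that supply deoxynucleotides were mixed, with 7 of 14 lower past both thresholds and none higher in limma, beside 8.34% and 8.52% of all tested genes, and a median of -1.02. The lower count was 4 with a pseudocount of 5 FPKM and with quantile normalization, and it includes Tk1, which passed the filter only through WT. Dut, which removes dUTP, was the lowest, at 43.3 and 49.3 FPKM in WT and 9.23 and 9.25 FPKM in R111A (-2.20). Samhd1, which degrades deoxynucleotides and is known for its activity in non-cycling cells, was the highest, at 86.3 and 76.8 FPKM in WT and 195 and 128 FPKM in R111A (log2 fold change 0.94 with a standard error of 0.19, adjusted p = 0.0038). Samhd1 was higher past both thresholds with median-of-ratios factors (1.04), quantile normalization (1.17) and GC and length correction (1.07), without WT replicate 1 (1.03) and without R111A replicate 2 (1.25), but was at 0.64 without R111A replicate 1, the library with its higher value. Of the other fork, clamp and checkpoint factors 28 of 29 were tested, with 11 lower and 1 higher past both thresholds, beside 8.34% and 8.52% of all tested genes, and a median of -0.64. The 11 include Chtf18, Dscc1, Pclaf and Exo1, which passed the filter only through WT, and the count was 4 with a pseudocount of 5 FPKM and 5 with a filter at 5 FPKM. Chek1, the kinase that ATR activates at stalled forks, was the lowest, at 14.7 and 15.7 FPKM in WT and 2.20 and 3.72 FPKM in R111A (-2.06). Pold4, the small subunit of polymerase delta, was the highest, at 35.1 and 35.6 FPKM in WT and 81.6 and 80.3 FPKM in R111A (log2 fold change 1.17 with a standard error of 0.12, adjusted p = 1.2e-04). Its direction was thus opposite to that of the 3 listed subunits of the same polymerase. After rescaling to TPM, Pold4 was higher by less than 2-fold (0.85) and Samhd1 by 0.61, both still past the adjusted p.

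**Figure D5:**
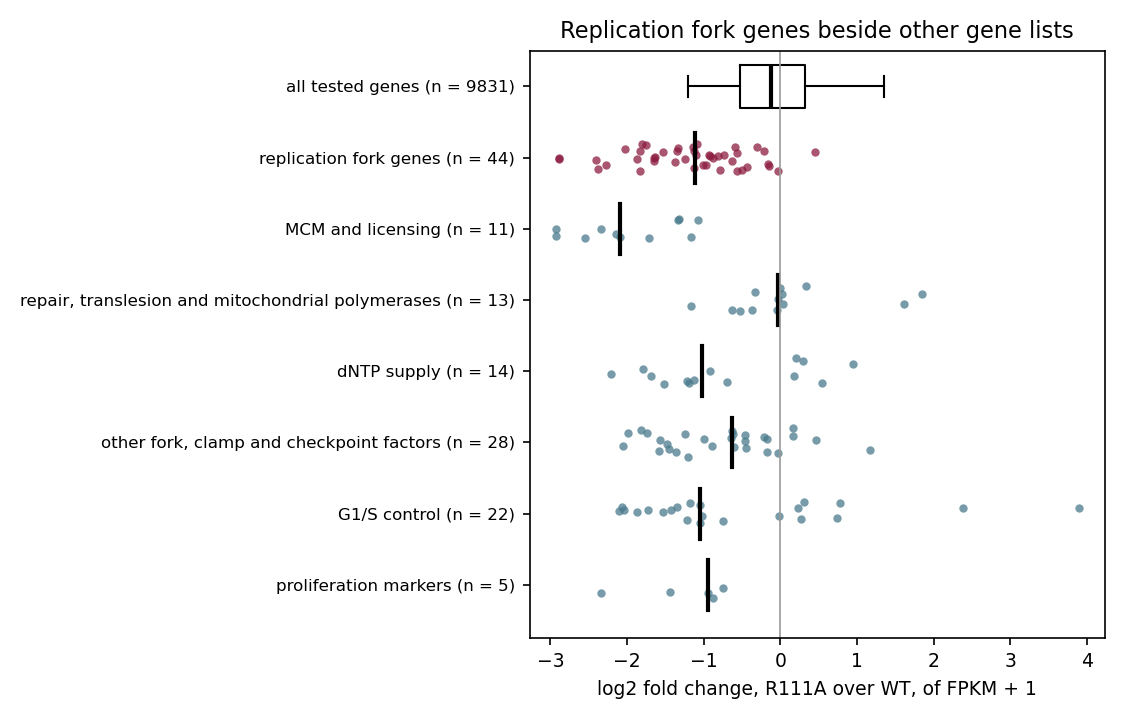
Log2 fold change (R111A over WT, of FPKM + 1) of the tested genes of each list, with a black bar at the median, and a box plot of all 9831 tested genes with whiskers at the 5th and 95th percentiles. The fork genes have a median of -1.12, the MCM and licensing genes of -2.10, and the repair, translesion and mitochondrial polymerases of -0.03.

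The labelled cell type was checked on marker genes. The 8 markers of CD4+ T cells summed to 2019 and 2009 FPKM in WT and to 1740 and 1600 FPKM in R111A, with Cd3g the most abundant except in R111A replicate 1, where it was Cd5. Cd4 itself was at 158 and 131 FPKM in WT and 70.7 and 51.4 FPKM in R111A. It fell past both thresholds (log2 fold change -1.24 with a standard error of 0.18, adjusted p = 5.7e-04). Cd3d rose (0.37, adjusted p = 0.029). By the adjusted p, 4 of the 8 markers were lower and 1 was higher, beside 32.1% and 21.2% of all tested genes. The lower ones were Cd4, Cd3g, Lck and Cd5, and 3 markers did not pass. Cd8a was at most 0.20 FPKM in any library, though Cd8b1 was at 7.21 and 6.56 FPKM in WT and 3.86 and 4.39 FPKM in R111A. Of the 6 genes of T cell activation, 2 rose and 2 fell past both thresholds, beside 8.52% and 8.34% of all tested genes. They ran from Tfrc (-1.87) to Nr4a1 (2.42), so these 6 genes did not all move the same way. Markers of B, myeloid, NK and erythroid cells were low, and their sums were higher in R111A. The 5 B cell markers summed to 2.13 and 0.95 FPKM in WT and 5.13 and 4.49 FPKM in R111A, most of it Cd79a and Cd79b in R111A. The 7 myeloid markers summed to 0.68 and 0.67 FPKM in WT and 6.76 and 4.26 FPKM in R111A, led by Lyz2 in R111A, with S100a9 at 0 in all 4 libraries. The 4 NK cell markers summed to 1.93 and 1.22 FPKM in WT and 19.2 and 18.2 FPKM in R111A, nearly all of it Klrd1 and Eomes, while Ncr1 and Klrb1c did not exceed 0.30 FPKM. The 4 erythroid markers summed to 0.66 and 0.44 FPKM in WT and 12.5 and 11.8 FPKM in R111A, nearly all of it Hba-a1, with Hbb-bs at 0 in all 4 libraries. Tregs, which can cycle more than other CD4+ T cells, have Foxp3 as their defining gene, at 11.3 and 8.78 FPKM in WT and 2.86 and 1.86 FPKM in R111A (log2 fold change -1.72 with a standard error of 0.19, adjusted p = 1.5e-04). The 4 Treg markers summed to 195 and 194 FPKM in WT and 141 and 147 FPKM in R111A, most of it Il2ra, which activated T cells also express. Ctla4 was at 38.9 and 44.3 FPKM in WT and 8.94 and 12.0 FPKM in R111A. It also fell past both thresholds (-1.90, adjusted p = 4.6e-05), while Ikzf2 and Il2ra did not pass. The part of any of these cells in the lower level of the replication fork genes was not tested.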

How the data were processed

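RNA-seq of 4 libraries was used. The authors selected polyA RNA and removed adaptors and low-quality bases. Per the submitters' processing notes, reads were aligned to mm10 (GRCm38) with Bowtie2 2.4.4 and quantified with RSEM 1.2.28. The authors deposited 1 FPKM value per gene and library, which is not a count. The annotation and the use of strand are not given in the sources used here. From steps in low values, WT replicate 1 was estimated to be 1.0, 1.06 and 1.19 times as deep as WT replicate 2, R111A replicate 1 and R111A replicate 2. Replicates were not copies, since 0.66% of tested genes were equal in both WT libraries and 0.23% in both R111A libraries.

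Genes averaging 1 FPKM or more were tested as log2(FPKM + 1) with limma 3.58.1 in R 4.3.3 (lmFit, eBayes with trend, Benjamini-Hochberg adjustment over all tested genes). The 2-fold and adjusted p thresholds were taken from the study's methods, in which the authors used DESeq2 and not limma. An exact permutation test of 2 against 2 libraries has no two-sided p under 0.333, and the small p-values come from variance shared across genes. The procedure was tested on simulated data. The members and gene lists were chosen with earlier results of these data known, so the list as a whole was given no test and is described by counts and medians beside all tested genes. Values in each library are given for Pcna, for the lowest and highest gene of each role group by log2 fold change, for any member that rose, and for some further genes chosen after their values were seen. In each other list the lowest and the highest tested gene are named. Positions and promoters are from RefSeq GRCm38.p6, and transcript GC content, length and exon overlaps from GENCODE annotation of GRCm38, read with python 3.11.15, numpy 2.4.6 and pandas 2.3.3.

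Alternatives were pseudocounts of 0.1 and 5 FPKM, no filter, a filter at 5 FPKM, TPM rescaling, median-of-ratios factors, quantile normalization, a replicate block, eBayes without trend or robust, and leaving out each library. A GC and length correction was added after seeing the data. Protein sequences were not used here.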

Additional observations from a re-analysis of the deposited data

How the results depend on the processing

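Over the 15 alternatives, 20 to 32 of the tested members were lower past both thresholds (25 as reported) and 32 to 43 by the adjusted p (37 as reported), and none was higher past both. The count of members higher by the adjusted p, 1 as reported (Orc5), was 0 with no filter and 0 after rescaling to TPM, and 0 to 1 with a library left out. The members' median, -1.12 as reported, was -0.95 with a pseudocount of 5 FPKM, -1.44 after rescaling to TPM and -0.97 with quantile normalization, and -1.18 to -1.04 with a library left out. The larger pseudocount shrinks changes by construction, by over 1.5 times for Orc1, Cdc45, Gins3, Pola1, Pole, Dna2 and Chaf1a, and rescaling to TPM shifts all genes. The cause of the other moves was not tested. Leaving out a library leaves 1 in its group, which is assumed to vary like the other group. The values that turned direction were small and uncalled. Gins4 turned with quantile normalization (0.033), Pole4 with median-of-ratios factors (0.064), quantile normalization (0.22) and GC and length correction (0.00034), and the cause was not tested. With a library left out, Pole4 ran from -0.080 to 0.025 and Chaf1b from -0.43 to 0.017. Over all genes, a pseudocount of 5 FPKM took the calls past both thresholds from 820 lower and 838 higher to 402 and 386. The count of all 9831 genes lower by the adjusted p also moved with the setting. It was 3152 as reported, 2630 with quantile normalization and 5096 after rescaling to TPM, beside 37, 34 and 43 members.

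The replicate numbers pair nothing that the labels name. Differences between replicates 1 and 2 in WT and in R111A correlated at 0.11 across genes. With the replicate number as a block, 25 members were lower past both thresholds and 38 by the adjusted p, 1 was higher by the adjusted p, and the median was -1.12. The block let Cdc7 pass (adjusted p = 0.026). Read numbers are not known, so low values such as those of Ticrr, Clspn, Orc1 and Dna2 in R111A carry an error that the 2 libraries of a group measure poorly.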

Other observations

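Genes that control entry into S phase were read beside the replication fork genes. Of 24 G1/S control genes 22 were tested, of which 13 were lower and 2 were higher past both thresholds, beside 8.34% and 8.52% of all tested genes, and the median was -1.05. The 13 include Ccne1 and Ccna2, which had an R111A mean under 1 FPKM and passed the filter only through WT, and the count was 6 with a pseudocount of 5 FPKM. Ccnd2, the D-type cyclin induced by mitogens, was the lowest, at 291 and 300.0 FPKM in WT and 62.3 and 74.4 FPKM in R111A (log2 fold change -2.10 with a standard error of 0.14, adjusted p = 1.2e-05). Cdkn1a, the CDK inhibitor p21, was the highest, at 14.3 and 15.5 FPKM in WT and 266 and 207 FPKM in R111A (log2 fold change 3.89 with a standard error of 0.15, adjusted p = 2.7e-06). Each group was separated from the other in both genes. E2f1, an activator of replication genes, was at 8.08 and 7.97 FPKM in WT and 1.23 and 1.09 FPKM in R111A, and fell (log2 fold change -2.06 with a standard error of 0.14, adjusted p = 1.4e-05). The other activator E2Fs were at 0.69 and 0.93 FPKM in WT and 1.48 and 1.00 FPKM in R111A for E2f2, which did not pass, and at 5.47 and 5.31 FPKM in WT and 1.21 and 1.86 FPKM in R111A for E2f3, which fell (-1.35). The activator E2F genes were chosen after their values were seen.

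Markers of proliferating cells were at low levels in both groups. All 5 were lower by the adjusted p, 2 of them also by 2-fold, beside 32.1% and 8.34% of all tested genes. Mki67, Ccnb1 and Cdk1 had an R111A mean under 1 FPKM and passed the filter only through WT, so they had to differ. The count by 2-fold was 1 with a pseudocount or a filter of 5 FPKM. It was 4 with a pseudocount of 0.1 FPKM or with quantile normalization, and 5 after rescaling to TPM. Top2a, a topoisomerase of S phase and mitosis, was at 12.0 and 10.8 FPKM in WT and 1.10 and 1.88 FPKM in R111A (-2.33). Birc5, a factor of chromosome segregation, was at 4.67 and 4.14 FPKM in WT and 2.23 and 2.21 FPKM in R111A (-0.75). The 5 markers together summed to 23.3 and 21.4 FPKM in WT and 4.58 and 5.84 FPKM in R111A, so their sum stayed below the level of the median fork gene even in WT.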
